A study of Mus musculus with 2 samples.

Results

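Platelet-derived growth factor (PDGF) signalling in atherosclerotic mouse aorta was described through its 4 ligand genes, Pdgfa, Pdgfb, Pdgfc and Pdgfd, and its 2 receptor genes, Pdgfra and Pdgfrb. These 6 genes were chosen by symbol from the 32285 genes of the count matrices, with no measured value in the rule, and each had reads in both libraries. The questions put to them were which cells of the aorta carried the RNA of each gene, and how the levels compared between mice with and without CD45 in their endothelial cells.

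PDGFs are secreted dimers. PDGF-A and PDGF-B are cut to their active form inside the cell, whereas PDGF-C and PDGF-D leave the cell as latent proteins and are activated outside it by proteases such as the plasminogen activators. Receptor alpha is activated mainly by the A, B and C chains and receptor beta mainly by the B and D chains, and both are tyrosine kinases. In vessel walls, PDGF-B from endothelium is the textbook signal that recruits pericytes and smooth muscle cells carrying receptor beta, and receptor alpha is a common marker of fibroblasts.

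Droplet RNA-seq of single cells (10x Genomics) had been run on 2 libraries of aortic cells, 1 per group, after enrichment with magnetic beads against CD31, an endothelial surface protein. Mice of both groups were ApoE-/- on a C57BL/6 background and ate a Western diet, a standard model of atherosclerosis. The group called WT here carried no further deletion that the labels name, and the group called EC-iCD45KO also lacked CD45, the leukocyte tyrosine phosphatase encoded by Ptprc, through a tamoxifen-inducible deletion specific to endothelial cells (EC). The Cre driver, the deleted exons, the ages, any tamoxifen given to controls and any pooling of animals were not given in the sources used here. With 1 library per group there was no test between groups: each bracketed range is a 95% interval for counting error, and effects of the genotype, the animals and the preparation cannot be told apart.

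Of the WT barcodes, 39849 carried 92058043 UMIs (unique molecular identifiers, 1 per captured RNA molecule; median 1548). The EC-iCD45KO matrix held 30278 barcodes with 88967918 UMIs (median 1405), and 340 barcodes occurred in both. After filters, 35553 and 26064 cells formed 41 clusters, which gave 13 classes with at least 50 cells in each library, called "X-like" after marker genes. The class mix differed: macrophage-like cells made up 9.41% of WT and 36.9% of EC-iCD45KO cells, B-like cells 16.3% and 1.31%, and EC-like cells 11.4% and 15.8%. Cells of 14 unnamed clusters were 27.3% and 10.9%. All 12 EC markers had UMIs in EC-like cells in both libraries, but so did markers of other types: the 10 B-cell markers summed to 1874 CPM (UMIs per 1000000 UMIs of the class) in EC-like cells of WT and 623 CPM in those of EC-iCD45KO. Ptprc, the deleted gene, stood at 307 CPM in WT and 115 CPM in EC-iCD45KO in EC-like cells. Among classes that the deletion does not target, it stood at 262 and 101 CPM in smooth muscle (SMC)-like and 301 and 131 CPM in fibroblast-like cells, and among leukocytes at 490.3 and 285 CPM in macrophage-like, 835 and 684 CPM in dendritic-like, 1091 and 829 CPM in T/NK-like, 752 and 1261 CPM in B-like and 922 and 1720.3 CPM in neutrophil-like cells. Loss from endothelium and less leukocyte RNA in the droplets cannot be told apart.

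From the RefSeq promoter table (GRCm38.p6), 5 start sites were read, for 4 of the genes. Start sites of Pdgfb and Pdgfrb were not included. Those of Pdgfd, Pdgfc and Pdgfra are shown because EC-like, SMC-like and fibroblast-like cells, in that order, led their levels among the compared classes. Each is the 250 bases before the start site, 5′ to 3′ on the gene's strand (plus for all 3), at chr9:6168236-6168485 for Pdgfd, chr3:81036166-81036415 for Pdgfc and chr5:75152001-75152250 for Pdgfra. Capitals mark matches, on either strand, to the TATA-box letters TATAAA, to the GC-box letters GGGCGG, or to the CArG box, the element bound by serum response factor.
Pdgfd: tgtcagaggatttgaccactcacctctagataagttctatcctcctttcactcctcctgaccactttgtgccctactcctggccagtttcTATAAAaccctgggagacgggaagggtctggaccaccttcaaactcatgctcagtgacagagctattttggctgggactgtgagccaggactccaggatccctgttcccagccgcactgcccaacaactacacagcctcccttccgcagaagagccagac
Pdgfc: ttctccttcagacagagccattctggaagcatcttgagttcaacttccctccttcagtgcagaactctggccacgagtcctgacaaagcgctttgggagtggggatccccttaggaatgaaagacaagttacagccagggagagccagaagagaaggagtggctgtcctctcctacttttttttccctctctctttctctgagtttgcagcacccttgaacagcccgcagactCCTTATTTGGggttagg
Pdgfra: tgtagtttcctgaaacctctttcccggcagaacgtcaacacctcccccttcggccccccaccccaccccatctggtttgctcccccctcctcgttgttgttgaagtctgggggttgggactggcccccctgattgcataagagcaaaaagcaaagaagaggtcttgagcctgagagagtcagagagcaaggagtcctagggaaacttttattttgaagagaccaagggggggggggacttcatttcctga
The Pdgfc window held 1 CArG box, which starts 17 bases before the start site and reads as a CArG box on both strands; of 32851 promoters of the same length, 1.47% held one. The Pdgfd window held TATAAA starting 160 bases before the start, as did 12.4% of promoters anywhere in their window, and the Pdgfra window held none of these motifs. The 2 Pdgfa windows held 1 and 2 matches to GGGCGG, present in 32.7% of promoters, and no match to the other motifs; they were 66.4% and 72.4% G and C against a median of 52.4%. These matches describe letters only.

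In GRCm38 (GENCODE M21), Pdgfa (ENSMUSG00000025856) is at chr5:138976014-138997370 and Pdgfb (ENSMUSG00000000489) at chr15:79995874-80014977, both on the minus strand. On the plus strand, Pdgfc (ENSMUSG00000028019) is at chr3:81036416-81214040, Pdgfd (ENSMUSG00000032006) at chr9:6168584-6378850, Pdgfra (ENSMUSG00000029231) at chr5:75152292-75198215 and Pdgfrb (ENSMUSG00000024620) at chr18:61045150-61085061. The sources used here do not state whether reads were counted by strand. Each gene except Pdgfrb overlaps another gene of the matrices (6330403L08Rik, Gm41361, Gm16000, Ddi1 and Gm42802, in the order above), so its UMIs are uncertain to that extent.

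**Figure D1:**
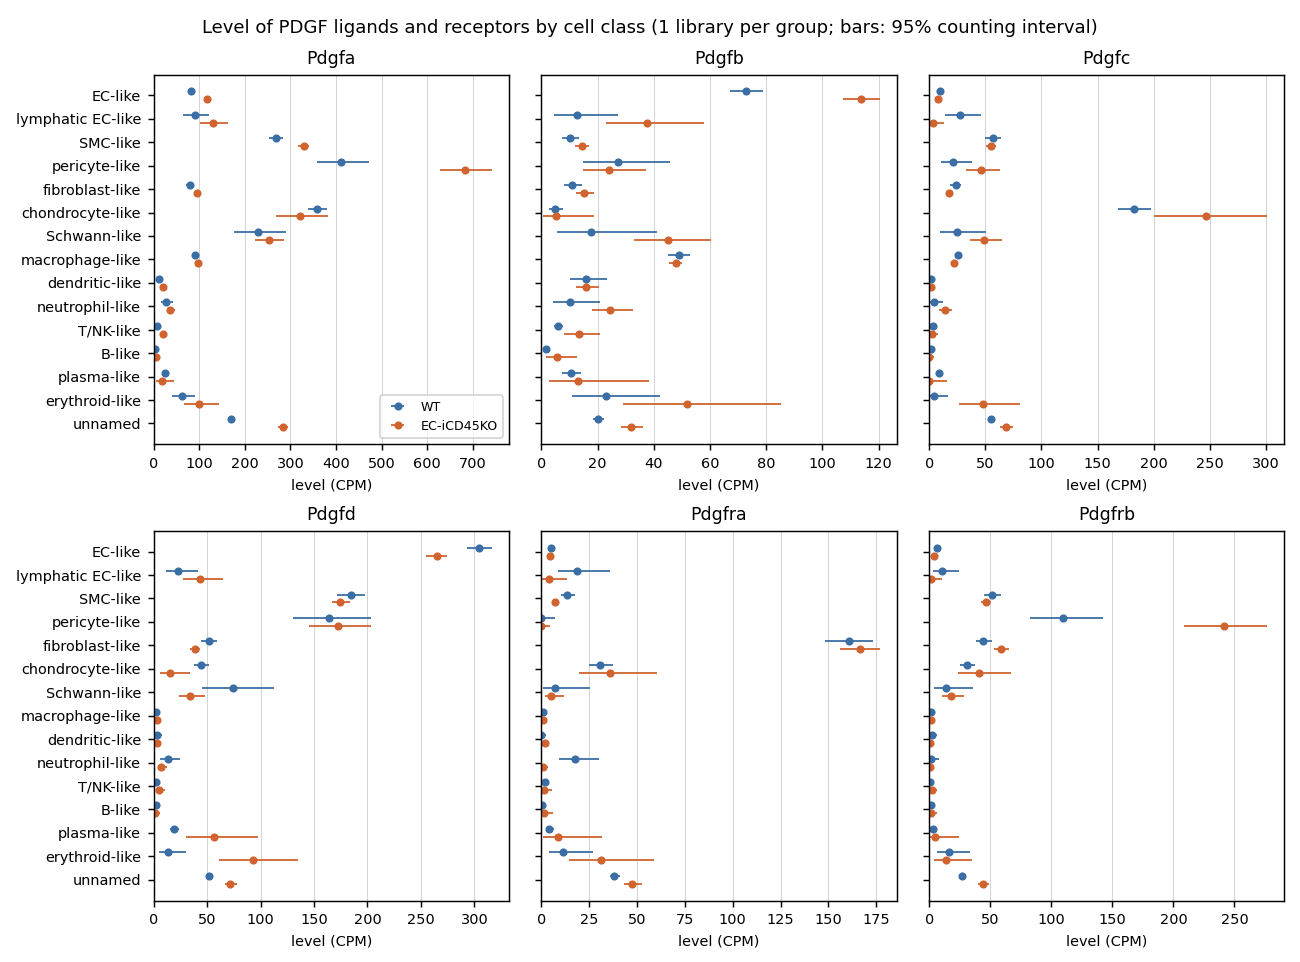
Level of each gene (CPM, linear axis from 0) by class for WT and EC-iCD45KO; bars are 95% Poisson intervals. Pdgfb and Pdgfd were highest in EC-like cells, Pdgfra in fibroblast-like cells and Pdgfrb in pericyte-like cells.

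Pdgfb, the ligand of both receptors, had its highest level in EC-like cells. Macrophage-like cells were next in WT and in the mean of the libraries; in EC-iCD45KO, erythroid-like cells had 51.7 CPM (29.0 to 85.3) from 15 UMIs, an interval that spans the macrophage-like level. EC-like cells of WT had 72.9 CPM (67.2 to 78.9) from 613 UMIs, and those of EC-iCD45KO had 114 CPM (107 to 120.4) from 1145 UMIs. The intervals did not overlap: the log2 ratio, always EC-iCD45KO over WT, was 0.64 (0.50 to 0.78), or 1.56-fold. Macrophage-like cells of WT had 49.0 CPM (45.2 to 53.0), and those of EC-iCD45KO 47.7 CPM (45.5 to 50.01), for a ratio of -0.04 (-0.17 to 0.10). The macrophage-like level was thus below the EC-like level in both libraries and nearly equal between them. After each cell was thinned to 1000 UMIs, which left out 1365 WT and 1493 EC-iCD45KO cells, 6.80% and 8.85% of EC-like cells had a Pdgfb UMI, a difference of 2.05 percentage points (0.604 to 3.502). Without thinning the shares were 12.0% and 15.7%. In B-like cells, taken as a background, the thinned shares were 0.111% and 0.639%. Median depths were 1304 and 1283 UMIs in EC-like cells and 2004 and 2548 in B-like cells. Macrophage markers summed to 366 and 478 CPM in B-like cells but 2954 and 3782 CPM in EC-like cells, so the background in EC-like cells can be higher.

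The higher EC-like level of Pdgfb in EC-iCD45KO did not hold in the cells freest of other RNA. In the 321 WT and 979 EC-iCD45KO EC-like cells without a UMI of another class's specific markers, Pdgfb stood at 134 and 111 CPM, from 57 and 141 UMIs, and the log2 ratio turned to -0.27. That ratio carries no interval here, and these cells were 321 of 4040 in WT and 979 of 4125 in EC-iCD45KO. Macrophage markers summed to 2954 CPM in all EC-like cells of WT and 3782 CPM in those of EC-iCD45KO, with none of the 10 at 0. Their part in the result was not tested.

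Pdgfb in macrophage-like cells stood well above the level that endothelial markers had there. It was 67.2% of the EC-like level in WT and 42.0% in EC-iCD45KO. The 12 EC markers, which include Cdh5 and Pecam1, had medians of 1.06% and 1.30% by the same measure and highest values of 6.89% and 6.84%. Macrophage-like clusters, named here by their 2 leading genes, differed among themselves. The Zmynd15 and Stmn4 cluster had 67.7 CPM in WT and 74.9 CPM in EC-iCD45KO, and the Negr1 and Ccl12 cluster 36.0 and 45.6 CPM. In the Bex1 and Gpnmb cluster Pdgfb was lower in EC-iCD45KO, at 44.8 CPM (38.8 to 51.4) against 71.0 CPM (60.01 to 83.5) in WT, a ratio of -0.67 (-0.98 to -0.35).

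Pdgfd, the latent ligand of receptor beta, was also led by EC-like cells, but its next classes were mural. EC-like cells of WT had 305 CPM (293 to 317) and those of EC-iCD45KO 265 CPM (255 to 275), a log2 ratio of -0.20 (-0.28 to -0.12), opposite in sign to that of Pdgfb over all EC-like cells. In those free of other classes' markers both were below 0, at -0.56 for Pdgfd and -0.27 for Pdgfb. The thinned share with a UMI was 20.5% and 19.8%, and the interval of the difference, -0.73 percentage points (-2.89 to 1.43), held 0. SMC-like cells had 184 CPM (172 to 197) in the WT library and 175 CPM (167 to 183) in the other. Pericyte-like cells had 164 CPM (131 to 203) and 172 CPM (145 to 203) in the same order. The intervals of these mural classes overlapped in both libraries, and the ratios of -0.08 (-0.20 to 0.05) and 0.07 (-0.33 to 0.48) held 0. The SMC-like level was 60.5% of the EC-like level in WT and 66.0% in EC-iCD45KO, against medians of 2.87% and 3.56% for EC markers.

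Pdgfd was near background in macrophage-like cells, unlike Pdgfb. They had 2.28 and 3.37 CPM, or 0.748% and 1.27% of the EC-like level, beside EC-marker medians of 1.06% and 1.30%. In fibroblast-like cells Pdgfd stood at 51.4 CPM (44.6 to 58.9) for WT and 38.4 CPM (33.7 to 43.6) for EC-iCD45KO, with a log2 ratio of -0.42 (-0.70 to -0.14); in those free of other classes' markers (16 and 25 UMIs) the ratio was -1.32.

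Pdgfa, a ligand of receptor alpha, was highest in mural cells among the compared classes; chondrocyte-like cells, not compared, had 359 and 321 CPM. Pericyte-like cells had 412 CPM (358 to 471) in the WT library against 684 CPM (629 to 742) in EC-iCD45KO, for a log2 ratio of 0.73 (0.50 to 0.97). The 10 pericyte markers summed to 3047 and 5681 CPM in these cells, and the Pdgfa ratio was 0.28 in those free of other classes' markers; the markers' part was not tested. SMC-like cells followed with 269 CPM (254 to 285) and 329 CPM (317 to 340.4), for a ratio of 0.29 (0.19 to 0.39). Schwann-like cells, the glia of peripheral nerves, had 228 CPM (176 to 291) and 254 CPM (223 to 287); in WT their interval overlapped that of SMC-like cells, so these counts do not order the pair there. EC-like, macrophage-like and fibroblast-like cells were close to each other, between 79.5 and 89.8 CPM in WT and between 94.9 and 117 CPM in EC-iCD45KO.

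The Pdgfa level was higher in EC-iCD45KO in every compared class except plasma-like cells, though several of these levels rest on few UMIs. EC-like cells of WT had 82.1 CPM (76.1 to 88.5) and those of EC-iCD45KO 117 CPM (111 to 124), a ratio of 0.51 (0.38 to 0.65). The ratio was 0.26 (0.06 to 0.46) in fibroblast-like cells and 0.11 (0.01 to 0.20) in macrophage-like ones. Thinned shares were also higher in mural and EC-like cells: 27.5% and 39.1% of pericyte-like cells, 16.5% and 23.3% of SMC-like cells and 6.02% and 9.08% of EC-like cells had a Pdgfa UMI, beside 0.427% and 0.319% of B-like cells; they were lower in neutrophil-like, T/NK-like and B-like cells. The direction was not stable in every class. In SMC-like cells the ratio turned to -0.14 without doublet removal and -0.15 with each library centred. In fibroblast-like cells it turned to -0.06 with centring and -0.14 in cells free of other classes' markers, and in macrophage-like cells to -0.12 in such cells.

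Pdgfc, the latent ligand of receptor alpha, had UMIs in mural, glial, macrophage-like and fibroblast-like cells. SMC-like cells led the compared classes with 56.6 CPM (49.8 to 64.0) for WT and 54.8 CPM (50.2 to 59.7) for EC-iCD45KO, a ratio of -0.05 (-0.26 to 0.18) that held 0. That ratio was -0.63 with each library centred, -0.64 without doublet removal and 0.43 with the mean of single-cell CPM. The chondrocyte-like cluster, with 1070 WT and 42 EC-iCD45KO cells and so not compared between libraries, was above them at 182 and 247 CPM. Macrophage-like cells had 26.1 CPM (23.4 to 29.1) and 22.0 CPM (20.6 to 23.6). That was 46.1% and 40.2% of the SMC-like level, while the 12 SMC markers had medians of 0.711% and 1.003%. The macrophage-like ratio was -0.24 (-0.43 to -0.05). Its direction turned in cells free of other classes' markers, at 12.6 and 20.0 CPM from 11 and 55 UMIs. It also turned with each library centred and at Leiden resolution 2. A pair of macrophage-like clusters differed in opposite directions. The Negr1 and Ccl12 cluster, which also had the mannose-receptor gene Mrc1 among its leading genes, had 31.6 CPM in WT and 17.7 CPM in EC-iCD45KO, a ratio of -0.84 (-1.18 to -0.49). The Zmynd15 and Stmn4 cluster had 20.4 and 31.3 CPM, a ratio of 0.62, and the difference between the clusters was not tested. EC-like cells had 9.87 and 8.24 CPM.

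**Figure D2:**
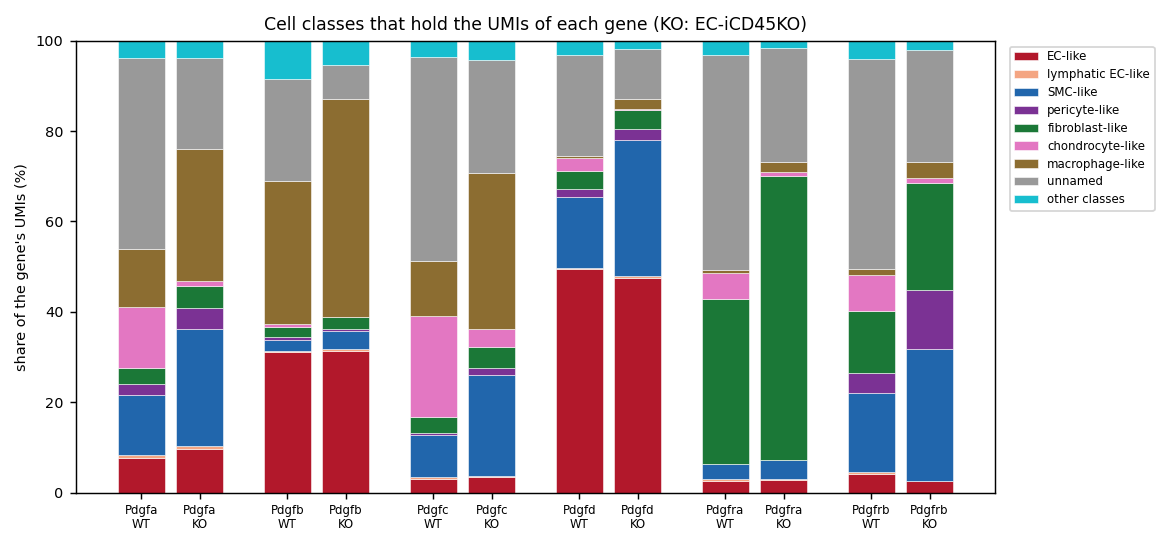
Share of all UMIs of each gene (%, stacked to 100) that came from each class, for WT and EC-iCD45KO (KO). EC-like cells held 49.4% and 47.5% of Pdgfd and fibroblast-like cells 36.5% and 62.9% of Pdgfra, and unnamed cells 47.5% and 25.1% of Pdgfra; a bar depends on how many cells of a class were captured as well as on its level.

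The share of each gene's UMIs held by a class followed both level and cell number. Macrophage-like cells held 31.6% of Pdgfb UMIs in WT and 48.4% in EC-iCD45KO, and EC-like cells 31.1% and 31.3%. Over all cells, Pdgfb stood at 23.1 and 44.2 CPM, and this ratio of 0.94 (0.86 to 1.02) exceeded that of both classes. Macrophage-like cells held 12.8% of Pdgfa UMIs in WT and 29.4% in EC-iCD45KO, although their Pdgfa level differed by a log2 ratio of 0.11. Unnamed clusters held 42.1% and 20.1% of Pdgfa, 45.0% and 25.0% of Pdgfc, 47.5% and 25.1% of Pdgfra and 46.4% and 24.9% of Pdgfrb UMIs, and made up 27.3% and 10.9% of cells. In such whole-library sums, more cells of a type and more RNA per cell cannot be told apart.

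Pdgfra, the alpha receptor, was led by fibroblast-like cells. They had 161 CPM (148 to 173) in WT from 650 UMIs, and 166 CPM (156 to 177) in EC-iCD45KO from 1027 UMIs, a log2 ratio of 0.05 (-0.09 to 0.20). The thinned share of these cells with a UMI was 11.7% and 11.6%, a difference of -0.13 percentage points (-2.47 to 2.17). Without thinning the shares were 18.6% (16.98 to 20.3) and 22.4% (20.8 to 24.1), which did not overlap. The ratio was 0.34 with each library centred and -0.53 in cells free of other classes' markers, so its direction depended on the setting.

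Other large classes carried little Pdgfra. EC-like cells had 5.23 and 4.57 CPM, or 3.26% and 2.74% of the fibroblast-like level, beside medians of 3.43% and 2.51% for the fibroblast markers. SMC-like cells had 13.5 CPM (10.3 to 17.3) for WT and 7.25 CPM (5.65 to 9.16) for EC-iCD45KO, a ratio of -0.89 (-1.41 to -0.37) that turned to 0.14 with the mean of single-cell CPM. Their level was 8.39% and 4.36% of the fibroblast-like one, below the fibroblast-marker medians of 13.7% and 11.9%. The 12 fibroblast markers in SMC-like cells were lower in EC-iCD45KO too, 3306 against 4799 CPM in sum with none at 0; their part in the Pdgfra difference was not tested.

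Pdgfrb, the beta receptor, was highest in pericyte-like cells, the microvascular mural cells it marks in textbooks. The 213 WT cells had 109 CPM (82.6 to 142) from 56 UMIs, and the 210 EC-iCD45KO cells 241 CPM (209 to 277) from 200 UMIs. The intervals did not overlap, and the log2 ratio was 1.14 (0.71 to 1.60), or 2.21-fold. Thinned shares were 10.6% (6.03 to 16.8) and 15.2% (9.91 to 22.0), and the interval of their difference, 4.67 percentage points (-3.16 to 12.4), held 0. At 2000 UMIs per cell the shares were 21.9% and 38.5%, and without thinning 18.8% and 33.3%. The 10 pericyte markers, which include Rgs5 and Kcnj8, summed to 3047 CPM in WT and 5681 CPM in EC-iCD45KO in the same cells, and the 12 SMC markers to 29168 and 34662 CPM, with none at 0. Their part in the result was not tested. In the 17 and 27 pericyte-like cells free of other classes' markers, with 5 Pdgfrb UMIs in each library, the ratio was -0.62.

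Pericyte-like cells had no Pdgfra UMI. A count of 0 among 512241 UMIs in WT and 829247 in EC-iCD45KO allows up to 5.86 and 3.62 CPM (3 counts). Fibroblast markers in these cells summed to 886 and 1456 CPM, with none of the 12 at 0.

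Fibroblast-like and SMC-like cells carried Pdgfrb at lower levels than pericyte-like cells. In WT, SMC-like cells had 51.4 CPM (45.0 to 58.5) and fibroblast-like cells 44.5 CPM (38.2 to 51.5), so their intervals overlapped. In EC-iCD45KO the order was the other way, with 46.2 CPM (42.0 to 50.7) and 59.1 CPM (53.2 to 65.5). The log2 ratio was -0.15 (-0.39 to 0.08) in SMC-like cells. In fibroblast-like cells it was 0.41 (0.15 to 0.68), and it turned to -0.58 in the 138 and 640 cells free of other classes' markers. EC-like cells had 6.30 and 3.77 CPM on 53 and 38 UMIs. These were 5.76% and 1.56% of the pericyte-like level, where the pericyte markers had medians of 3.03% and 1.62%.

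**Figure D3:**
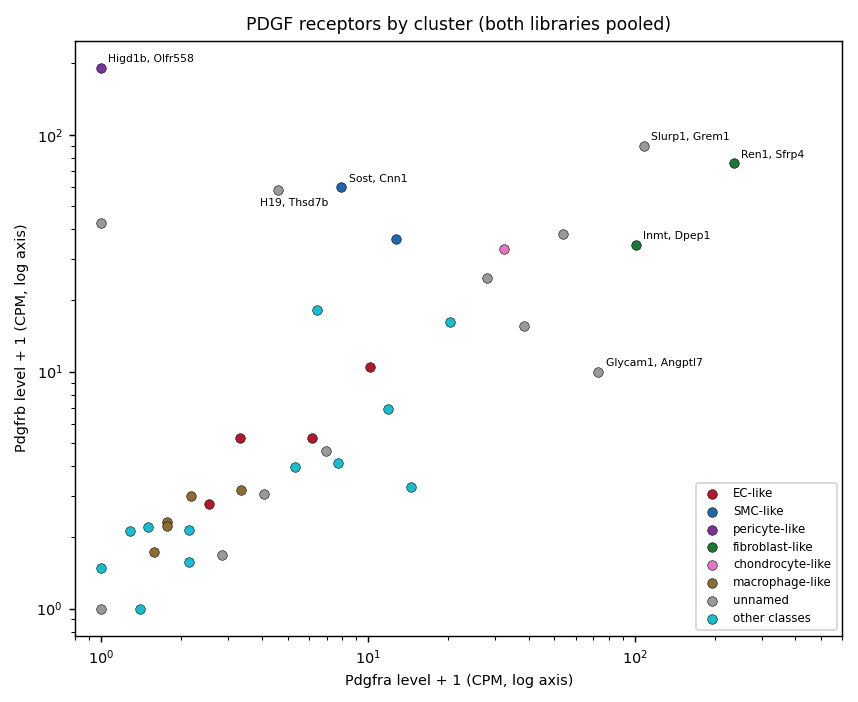
Pdgfra against Pdgfrb level (CPM + 1, log axes) in the 38 clusters with at least 50 cells, both libraries pooled; colours are classes, and some clusters carry their 2 leading genes. The pericyte-like cluster had Pdgfrb with no Pdgfra, and the fibroblast-like clusters and the unnamed Slurp1 and Grem1 cluster had both.

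For Pdgfra, the fibroblast-like clusters differed more from each other than between libraries. The Ren1 and Sfrp4 cluster had 254 CPM (230.3 to 279) for WT and 224 CPM (208 to 241) for EC-iCD45KO, with a ratio of -0.18 (-0.36 to -0.01). The Inmt and Dpep1 cluster had 94.8 CPM (82.8 to 108) and 104 CPM (92.8 to 116), with a ratio of 0.14 (-0.12 to 0.39). Fibroblast markers summed to 35992 and 31226 CPM in the first cluster and to 12742 and 14835 CPM in the second. Their part in the Pdgfra gap between the clusters was not tested. Pdgfrb stood at 72.9 and 76.2 CPM in the first, a ratio of 0.06 (-0.25 to 0.39). In the second it stood at 24.4 CPM (18.5 to 31.6) and 40.6 CPM (33.6 to 48.5), a ratio of 0.73 (0.27 to 1.21). The second cluster had shallow cells, with medians of 1075 and 1092 UMIs, and macrophage markers summing to 4738 and 6749 CPM. The part of these in the difference was not tested.

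An unnamed cluster led by Slurp1 and Grem1, with 541 WT and 483 EC-iCD45KO cells, carried every member except Pdgfb above 40 CPM in both libraries. Its summed level of genes of modulated smooth muscle cells, the matrix-producing state that contractile cells take up in plaques, was 50455 CPM over both libraries, second to the chondrocyte-like cluster with 56464 CPM. Many of those genes, such as Lum and Dcn, are also expressed by fibroblasts, and fibroblast markers summed to 17728 and 22554 CPM. Pdgfa stood at 547 CPM in WT and 488 CPM in EC-iCD45KO, and Pdgfc at 174 and 133 CPM. It held both receptors: Pdgfra at 128 CPM (117 to 139) and 82.3 CPM (73.0 to 92.6), and Pdgfrb at 87.7 CPM (78.9 to 97.3) and 90.3 CPM (80.5 to 101). The log2 ratio was -0.63 (-0.85 to -0.42) for Pdgfra, 0.04 (-0.18 to 0.27) for Pdgfrb and -0.39 (-0.56 to -0.22) for Pdgfc. Pdgfd stood at 90.4 and 44.7 CPM, a ratio of -1.02 (-1.30 to -0.74). Median depth was 6323 UMIs in WT and 2392 in EC-iCD45KO, and its part in these ratios was not tested.

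The 4 EC-like clusters differed in their ligand levels and in their sum of EC markers. Over both libraries, these markers summed to 8734 CPM in the Gpihbp1 and Ccdc85a cluster and 7005 CPM in the Ackr1 and Csf3 cluster. They summed to 5172 CPM in the Gkn3 and Klk10 cluster and 3127 CPM in the Prnd and Igfbp3 cluster. The part of this in the ligand levels was not tested. The Gpihbp1 and Ccdc85a cluster had the highest sum of capillary genes among the 38 clusters (31876 CPM) and the highest Pdgfb among the EC-like ones, 135 CPM (119 to 153) in the WT library and 188 CPM (172 to 205) in EC-iCD45KO. It also had the highest Pdgfd of these clusters, 555 CPM (521 to 589.9) and 469 CPM (444 to 496), while its Pdgfa stood at 63.0 and 47.9 CPM. The Gkn3 and Klk10 cluster, with the highest sum of arterial genes (1832 CPM), had the highest Pdgfa of the EC-like clusters in WT, 141 CPM (126 to 157), and 157 CPM (140.4 to 175) in EC-iCD45KO.

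The CPM ratio of Pdgfb lay above 0 in each EC-like cluster, and that of Pdgfa did not. For Pdgfb the log2 ratio was 0.52 (0.26 to 0.79) in the Prnd and Igfbp3 cluster and 0.80 (0.49 to 1.12) in the Gkn3 and Klk10 cluster. It was 0.48 (0.26 to 0.70) in the Gpihbp1 and Ccdc85a cluster and 0.84 (0.28 to 1.42) in the Ackr1 and Csf3 cluster, which had the highest sum of venous genes (2864 CPM). Thinned shares separated the libraries less: 5.86% and 6.52% of Prnd, 3.99% and 8.44% of Gkn3, 14.2% and 15.7% of Gpihbp1 and 4.47% and 4.32% of Ackr1 cluster cells had a Pdgfb UMI. Their intervals did not overlap in the Gkn3 cluster and overlapped in the others. Pdgfa stood at 47.1 and 119 CPM in the Prnd cluster, a ratio of 1.34 (1.07 to 1.62), and at 79.0 and 180.5 CPM in the Ackr1 cluster, a ratio of 1.19 (0.84 to 1.56). In the other two its ratios were 0.16 (-0.07 to 0.38) for Gkn3 and -0.40 (-0.77 to -0.02) for Gpihbp1. The Prnd cluster had shallow cells, with medians of 1031 and 987 UMIs, and macrophage markers at 5362 and 7071 CPM, above its own EC markers at 2866 and 3338 CPM. The Ackr1 cluster had medians of 2944 and 2863 UMIs and macrophage markers at 1229.8 and 1351 CPM. The part of either in the Pdgfa ratios, and the difference between clusters, was not tested.

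SMC-like cells fell into a shallow and a deep cluster with different Pdgfa ratios. The S100g and Sh3bgr cluster had 148 CPM (133 to 165) for WT and 275 CPM (259 to 291) for EC-iCD45KO, a ratio of 0.89 (0.72 to 1.07), at medians of 1124 and 1201 UMIs. The Sost and Cnn1 cluster, with medians of 7742 and 11040.5 UMIs and 42568 and 48908 CPM of SMC markers, had 399 CPM (373 to 427) and 373 CPM (356 to 389), a ratio of -0.10 (-0.22 to 0.02). Macrophage markers summed to 3009 and 5960.4 CPM in the shallow cluster and to 299 and 467 CPM in the deep one; their part was not tested. In the deep cluster the log2 ratio was -0.30 (-0.57 to -0.03) for Pdgfc, -0.19 (-0.34 to -0.04) for Pdgfd and -0.38 (-0.67 to -0.09) for Pdgfrb. For Pdgfra it was -1.53 (-2.38 to -0.69), beside 6358 and 3571 CPM of fibroblast markers, and for Pdgfb -0.45 (-1.26 to 0.39), an interval that held 0.

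**Figure D4:**
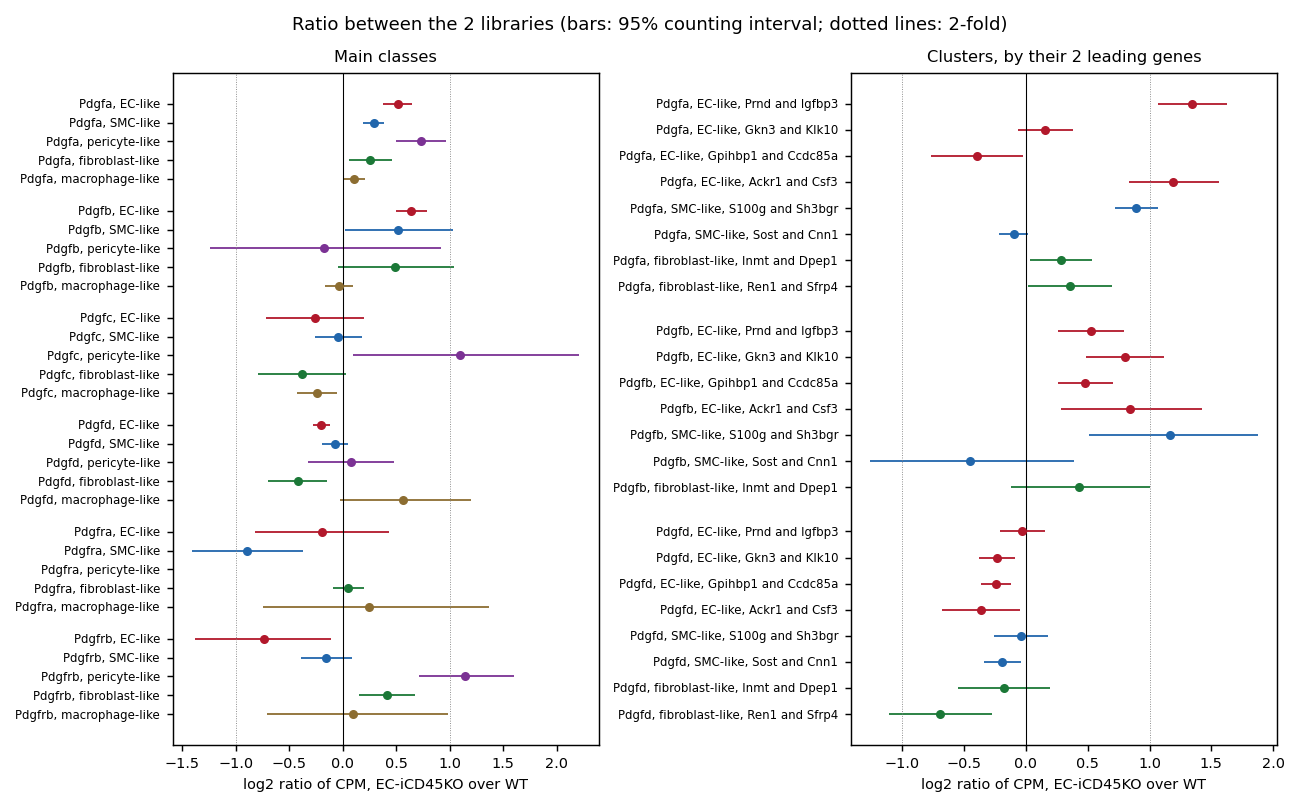
Log2 ratio of CPM, EC-iCD45KO over WT, with 95% counting intervals (bars) for the 6 genes in 5 classes (left) and for 3 ligands in the clusters of EC-like, SMC-like and fibroblast-like cells (right); dotted lines are 2-fold. Pdgfb lay above 0 in all 4 EC-like clusters, and in the main classes 2 values, both in pericyte-like cells, lay past 2-fold.

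Few of the genes were 2-fold apart between the libraries in the large classes. Counting genes whose mean level reached 5 CPM, 0 of 5 members differed by at least 2-fold in EC-like cells, where 5.19% of all 10969 genes did. The count was 0 of 6 in SMC-like cells (6.08% of genes), 0 of 6 in fibroblast-like cells (6.15%) and 0 of 3 in macrophage-like cells (2.2%). In pericyte-like cells it was 2 of 5, among 20.4% of genes: Pdgfrb as above and Pdgfc, at 21.5 CPM (10.7 to 38.4) in the WT library and 45.8 CPM (32.4 to 62.9) in EC-iCD45KO, with a ratio of 1.09 (0.10 to 2.21). Both had the higher CPM in EC-iCD45KO, but for Pdgfc the thinned shares were 2.11% and 1.32% (3 WT cells and 2 EC-iCD45KO cells), and the pericyte-like cells free of other classes' markers had no Pdgfc UMI.

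In the remaining classes the members' counts varied, as did the shares of all genes. They were 4 of 6 members in lymphatic EC-like cells (21.1% of genes), 3 of 5 in neutrophil-like cells (16.9%), 2 of 2 in T/NK-like cells (8.18%), 2 of 4 in plasma-like cells (33.2%), 2 of 6 in Schwann-like cells (23.7%) and 4 of 6 in erythroid-like cells (34.9%). In dendritic-like cells it was 0 of 2 (7.03%), and no member reached 5 CPM in B-like cells (5.09%). These counts set no minimum of UMIs. In lymphatic EC-like cells they include Pdgfc (13 and 2 UMIs), Pdgfra (9 and 2) and Pdgfrb (5 and 1). In neutrophil-like cells they include Pdgfc (3 and 27 UMIs) and Pdgfra (12 and 2). Pdgfa in T/NK-like cells, for example, rested on 74 and 28 UMIs, a ratio of 1.32 (0.64 to 1.97), while the thinned share of these cells with a UMI was 0.488% and 0.471%.

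Single cells showed how thinly ligand and receptor pairs were sampled. In fibroblast-like cells thinned to 1000 UMIs, 4 of 1376 WT cells (0.291%, 0.0793 to 0.743) and 9 of 1582 EC-iCD45KO cells (0.569%, 0.260 to 1.08) had both receptors. The product of the single shares, 0.366% and 0.519%, lay inside each interval; it takes no account of clusters within a class. For Pdgfa with Pdgfra in the same cells, 15 cells (1.09%) and 22 cells (1.39%) had both, with products of 0.816% and 1.16%. For Pdgfd with Pdgfrb in SMC-like cells, 7 of 1245 and 12 of 1956 cells had both, against products of 4.79 and 10.6 cells. Pdgfb met Pdgfrb in 0 and 2 EC-like cells and in 1 and 1 SMC-like cells.

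Across the 38 clusters with at least 50 cells, each member's profile was compared with those of 11491 genes with at least 20 CPM in some cluster. The measure was Pearson's r of log2(CPM + 1); clusters share libraries and depth and are not independent, so r is a description. Pdgfd followed Cdh13, which encodes T-cadherin (r = 0.96), Atp8b1 and Fam13c. Pdgfrb followed Vasn, which encodes vasorin (r = 0.96), Gpc6 and Arhgef25. Pdgfra followed Tspan11 (r = 0.92), Prg4, which encodes lubricin, and Sfrp4. Pdgfa followed B230118H07Rik (r = 0.92), S100a1 and Zfhx3. Pdgfc followed Fn1, the fibronectin gene (r = 0.87), Gstm5 and Cspg4, the NG2 proteoglycan, and Pdgfb followed Ctnnbip1 (r = 0.88), Cpd and Ncstn. Among the members themselves, r was highest for Pdgfa with Pdgfc (0.86) and for Pdgfa with Pdgfrb (0.76), and was 0.05 for Pdgfb with Pdgfrb and -0.06 for Pdgfb with Pdgfra.

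Genes that cut, hold or relay PDGF were read as 5 lists of 45 genes in 4 classes (EC-like, SMC-like, fibroblast-like, macrophage-like), with the backgrounds given above. Of the ligand-processing genes, 1 of 6 measured was 2-fold higher in EC-like cells: Plau, the urokinase that activates PDGF-D, at 10.2 CPM in WT and 22.6 CPM in EC-iCD45KO, a ratio of 1.15 (0.78 to 1.52). Macrophage-like cells had 50.5 and 58.7 CPM of Plau, and macrophage markers in EC-like cells summed to 2954 and 3782 CPM; their part was not tested. In SMC-like cells 1 of 5 was, Plat, the tissue plasminogen activator that activates PDGF-C, at 14.4 and 48.5 CPM, a ratio of 1.76 (1.38 to 2.16). In fibroblast-like cells 1 of 6 was lower, the proprotein convertase Pcsk6, at 10.4 and 4.37 CPM, a ratio of -1.25. In macrophage-like cells 0 of 3 were 2-fold apart.

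Genes that hold PDGF or act as co-receptors were 2-fold apart in none of these classes. In EC-like, SMC-like and fibroblast-like cells 6 of 7 lay above 0, with median log2 ratios of 0.34, 0.15 and 0.42, and in macrophage-like cells 6 of 6 did, with a median of 0.28. The medians over all genes measured were -0.00490, -0.05, -0.05 and -0.04 in the same order. Thbs1, which encodes a matricellular protein, went the other way in EC-like cells, at 123 and 81.1 CPM, a ratio of -0.61 (-0.74 to -0.47). Sparc, a matrix protein that binds PDGF-B, had 1936 and 2829.6 CPM in EC-like cells, a ratio of 0.55 (0.52 to 0.58). In fibroblast-like cells it had 4272 and 6489.8 CPM, a ratio of 0.60 (0.58 to 0.63), while its ratios in SMC-like and macrophage-like cells, 0.03 (-0.0021 to 0.06) and 0.07 (-0.04 to 0.18), held 0.

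Receptor signalling genes and receptor phosphatases were 2-fold apart in none of the 4 classes. The 13 or 14 signalling genes measured had median log2 ratios between -0.16 and 0.06, and the 6 phosphatases medians between -0.09 and 0.21. Of 9 PDGF-induced genes, 2 were 2-fold higher in each of EC-like, SMC-like and fibroblast-like cells, Ccl2 and Cxcl1, and 1 in macrophage-like cells, Cxcl1. Both encode chemokines that many inflammatory signals also induce. Ccl2 stood at 52.7 and 127 CPM in EC-like, 27.8 and 102 CPM in SMC-like, 90.4 and 351 CPM in fibroblast-like and 294 and 482 CPM in macrophage-like cells. Macrophage markers summed to 1701 and 2926 CPM in SMC-like and 3015 and 3890.2 CPM in fibroblast-like cells, and their part in these levels was not tested. Of the same 9 genes, 2 lay above 0 and 7 below in SMC-like cells, 3 above and 6 below in fibroblast-like cells, and 5 above and 4 below in EC-like and macrophage-like cells each. Their median log2 ratios were -0.39, -0.04, 0.07 and 0.11, in that order.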

How the data were processed

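The deposited matrices hold whole-number UMI counts per gene and barcode for 2 libraries. Per the submitters' processing notes, the authors used Cell Ranger 7.1.0 and mm10. Intron counting, strand and cell calling are not given in the sources used here. Of 32285 gene identifiers, 32158 matched GENCODE M21, which gave positions.

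Kept were barcodes in which 300 or more genes were detected and mitochondrial UMIs were no more than 10%: 39503 of 39849 in WT and 28960 of 30278 in EC-iCD45KO. Scrublet's own threshold marked 5 of 39716 and 0 of 29991 cells, so it had not worked, and the 10% with the highest scores were removed in each library. Both libraries were clustered together without correction: 2000 variable genes without the 6 members, the pathway genes and Ptprc, 30 principal components, 20 neighbours, Leiden resolution 1 (scanpy 1.11.5, leidenalg 0.10.2, Python 3.11.15). A class name was given to clusters of at least 50 cells with a mean log2 excess of their markers over the median cluster of at least 1 and at least 3 markers in 10% of cells. The class also had to lead the next one by 0.75, or to have 2 markers and no other class's in the 10 leading genes. Clusters stayed unnamed where another class had more markers among those 10 genes, or where none of the class's own was there and median UMIs were under 1/3 of each library's. That rule was chosen with the clusters in view; its second way named the pericyte-like cluster, which led SMC by 0.40. The authors' own cell types were not used here, so classes may differ from theirs.

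UMIs were summed per class and library and scaled to a total of 1000000 (CPM), with exact Poisson intervals. Log2 ratios, given from 5 UMIs in each library, carry exact conditional binomial intervals, shares exact Clopper-Pearson intervals after thinning to 1000 UMIs, and share differences Newcombe intervals. On simulated counts the ratio intervals held the true value for 95.1% (macrophage-like, 9510 genes) to 95.8% of genes (EC-like, 10961 genes). The intervals cover counting error alone, so this check does not bear on spread between animals or preparations. With 1 library per group no test was run.

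Named were the 6 members in every class, 3 of the 5 genes most like each over clusters, up to 4 genes at least 2-fold apart per pathway list and class, Ptprc, and leading genes of clusters; Sparc and Thbs1 were named after their values were seen. One gene near Pdgfa in pattern and 1 macrophage-like cluster are not reported here. The members and lists were chosen with earlier results of these data known. Promoters came from RefSeq. Alternatives were 2 other cell filters, no doublet removal, centred libraries, Leiden resolution 2, equal cluster weights, totals without mitochondrial, ribosomal protein and haemoglobin genes, TMM (edgeR 4.0.16), mean single-cell CPM, cells free of other classes' markers, 2000 UMIs or no thinning, and no minimum with 0.5 CPM added.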

Additional observations from a re-analysis of the deposited data

Results flagged for a closer look

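Pdgfd had opposite ratios between the libraries in classes with few UMIs of it. Its log2 ratio was 1.56 in plasma-like cells, from 80 UMIs in WT and 13 in EC-iCD45KO, and 2.75 in erythroid-like cells, from 6 and 27 UMIs. In Schwann-like cells it was -1.11, from 21 and 34 UMIs. Every class here is 1 library per group, and the difference between classes was not tested. In plasma-like and erythroid-like cells 33.2% and 34.9% of all genes were at least 2-fold apart, and 23.7% in Schwann-like cells.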

How the results depend on the processing

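No paired analysis was possible because there was a single library per group. Restricting classes to cells free of other classes' markers moved most values: the log2 ratio became 0.28 for Pdgfa and -0.62 for Pdgfrb in pericyte-like cells, -0.27 for Pdgfb and -0.56 for Pdgfd in EC-like cells, and -0.53 for Pdgfra in fibroblast-like cells; it turned to -0.14 for Pdgfa and -0.58 for Pdgfrb in fibroblast-like cells, and to -0.12 for Pdgfa and 0.67 for Pdgfc in macrophage-like cells. These cells are few (17 and 27 pericyte-like), their ratios carry no interval here, and the cause was not tested. With the mean of single-cell CPM the ratio was 0.27 for Pdgfb in EC-like cells, 0.43 for Pdgfc and 0.14 for Pdgfra in SMC-like cells, and -0.18 for Pdgfb in Schwann-like cells. With each library centred it was -0.63 for Pdgfc and -0.15 for Pdgfa in SMC-like cells, 0.34 for Pdgfra and -0.0612 for Pdgfa in fibroblast-like cells, and 0.41 for Pdgfc in macrophage-like cells. Without doublet removal it was -0.64 for Pdgfc and -0.14 for Pdgfa in SMC-like cells. At Leiden resolution 2 it was -0.40 for Pdgfd in EC-like cells and 0.0326 for Pdgfc in macrophage-like cells. Share differences in percentage points at 2000 UMIs and without thinning were 6.35 and 3.68 for Pdgfb in EC-like, 2.36 and 3.81 for Pdgfra in fibroblast-like and 16.6 and 14.6 for Pdgfrb in pericyte-like cells, and 3.16 without thinning for Pdgfc in SMC-like cells. Of the remaining values 327 stayed within the counting interval or 1.5 times the count, and 30 lay outside it. Not every change of sign was counted as a turn, so both counts can hold values whose sign changed. TMM scaling shifted ratios by -0.14 (T/NK-like) to 0.11 (neutrophil-like). The looser filter gave no pericyte-like class. Among the compared classes, depth limits Pdgfra outside fibroblast-like cells, where levels rest on few UMIs. The same holds for Pdgfrb outside pericyte-like, SMC-like and fibroblast-like cells, and its pericyte-like level rests on 56 and 200 UMIs.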
